A study of Homo sapiens with 6 samples.

Results

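Estrogen receptor target genes are genes whose transcription is induced by estrogen receptor alpha, the ligand-activated transcription factor encoded by ESR1. Of 34 such genes chosen by name, 32 were read here by 55 probe sets with a single gene symbol, among 11963 genes and 22215 probe sets in all. RERG and SGK3 were not analysed here, since no probe set with their symbol alone was found in the annotation. The expression values came from 6 Affymetrix arrays, each hybridized with total RNA of 1 sample. SUM44, an invasive lobular breast carcinoma line labelled ER+/PR+, was sampled at passages 74, 75 and 76 (replicates 1, 2 and 3). LCCTam, its tamoxifen-resistant variant, was sampled at passages 8, 9 and 10 (replicates 1, 2 and 3). Both lines grew in the medium that the labels name SFIH (Ham's F12), with 500 nM 4-hydroxytamoxifen added for LCCTam and none for SUM44. The resistant line and the drug therefore always occurred together and cannot be told apart. LCCTam is a single variant line, and the labels do not say whether it was cloned.

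Estrogen receptor alpha binds estrogen response elements, pairs of inverted GGTCA half-sites, and also reaches DNA through other factors. It recruits coactivators when estrogen is bound and corepressors when 4-hydroxytamoxifen, the active metabolite of tamoxifen, occupies the ligand pocket. In luminal breast cancer cells the drug lowers many of the receptor's targets, and some of those targets serve as clinical markers of a working receptor. The comparison of the lines asks which targets held, lost or gained expression in cells that carry less ESR1 RNA and grow in the drug.

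Levels here are log2 expression values, so a difference of 1 is 2-fold. Differences are LCCTam minus SUM44, with adjusted p-values from limma, a linear model fitted over all 22215 probe sets. A gene was read by its brightest probe set. It was called higher or lower at an adjusted p below 0.05. It was called kept where it was not so called and the 95% interval of its difference lay wholly within 1 on either side of 0, that is less than 2-fold either way. The others are called undecided. The samples are bulk RNA, so fewer cells with a transcript and less of it per cell cannot be told apart.

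LCCTam replicate 3 stood apart from the other arrays in its RNA controls. It had a 3' minus 5' difference of 1.92 for actin, with 0.90 to 1.15 on the rest, and of 0.61 for GAPDH, with 0.09 to 0.31 on the rest. The upper quartile of its values was 7.50, against 7.67 to 7.77. The table holds no detection calls. A gene is called dim in a line where its mean there was at or below 5.64 in SUM44 or 5.75 in LCCTam, the 90th percentile over 27 genes restricted to tissues such as muscle, retina and testis. All 12 epithelial markers, KRT8, KRT18, CDH1 and EPCAM among them, were above the dim level in both lines and 0 of 12 passed. Their summed levels were 14.70 to 14.91 in SUM44 and 14.31 to 14.90 in LCCTam (log2). Of 14 leukocyte and endothelial markers 10 were dim in both lines, with summed levels of 9.19 to 9.25 and 9.22 to 9.40, and 0 passed. Of 11 fibroblast markers 5 were dim in SUM44 and 8 in LCCTam, with summed levels of 9.61 to 9.91 and 8.95 to 8.99. The 1 that passed was COL3A1, with a mean of 8.64 in SUM44 and a dim mean of 4.22 in LCCTam, so the size of its fall depends on the background. The part of these differences in the targets' results was not tested.

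ESR1 itself was lower in LCCTam. Its brightest probe set read 12.49, 12.79 and 12.93 in SUM44 replicates 1, 2 and 3 and 11.14, 10.94 and 11.17 in LCCTam (log2 expression). Every LCCTam value lay below every SUM44 value. The difference was -1.65, a fall of 3.15-fold (SE 0.13, limma adjusted p = 0.00172), and 5 of 9 probe sets of the gene were lower and 0 higher. The LCCTam mean of 11.08 was still far above the dim level of 5.75.

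Some targets rose and others fell. CELSR2, SLC9A3R1, ABCA3, RAPGEFL1 and FKBP4 rose, between 1.74-fold and 2.69-fold. CXCR4, IL17RB, KLF4, TFF1 and SLC39A6 fell, between 1.97-fold and 4.14-fold. Thus 5 of 32 members were higher, or 15.6%, where 1.98% of all genes were. Another 5 were lower, also 15.6%, where 5.58% of all genes were. The members were chosen with earlier results of these data known, and how far that choice shaped these shares was not tested. All 10 called members had values that did not overlap between SUM44 and LCCTam, which the call itself makes likely. Among the other members, 13 were kept, or 40.6% against 87.9% of all genes, and 9 were undecided, or 28.1% against 4.51%. All 9 undecided genes had negative differences, from -1.38 to -0.60. The share of negative differences among the undecided genes of the whole series was not counted. The median difference of the members was -0.18, against 0.02 over all genes. Of the 32 members 21 were negative, or 65.6%, against 46.4% of all genes. Such a tilt was not particular to the targets. Of 12 epithelial markers 11 were negative, or 91.7%, with a median of -0.26. Of 14 leukocyte and endothelial markers 28.6% were negative.

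With at least a 2-fold change added, 4 members were higher, at a background of 0.535%, and 4 were lower, at a background of 1.5%. FKBP4 and SLC39A6 were the called members under 2-fold. The submitters' design text describes a selection by a change of 2-fold or more, p under 0.05 and an intensity floor of log2 of 10, which with limma's unadjusted p took 4 members as higher and 6 as lower, at backgrounds of 0.602% and 1.85%. MUC1 and MYBL1, both undecided above, are the further genes that it took as lower. In 6 members the lowest LCCTam value exceeded the highest SUM44 value, as in 13.2% of all genes, and in 11 members the reverse held, as in 16.6% of all genes. As a share of the 32, the 6 come near the background.

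**Figure D1:**
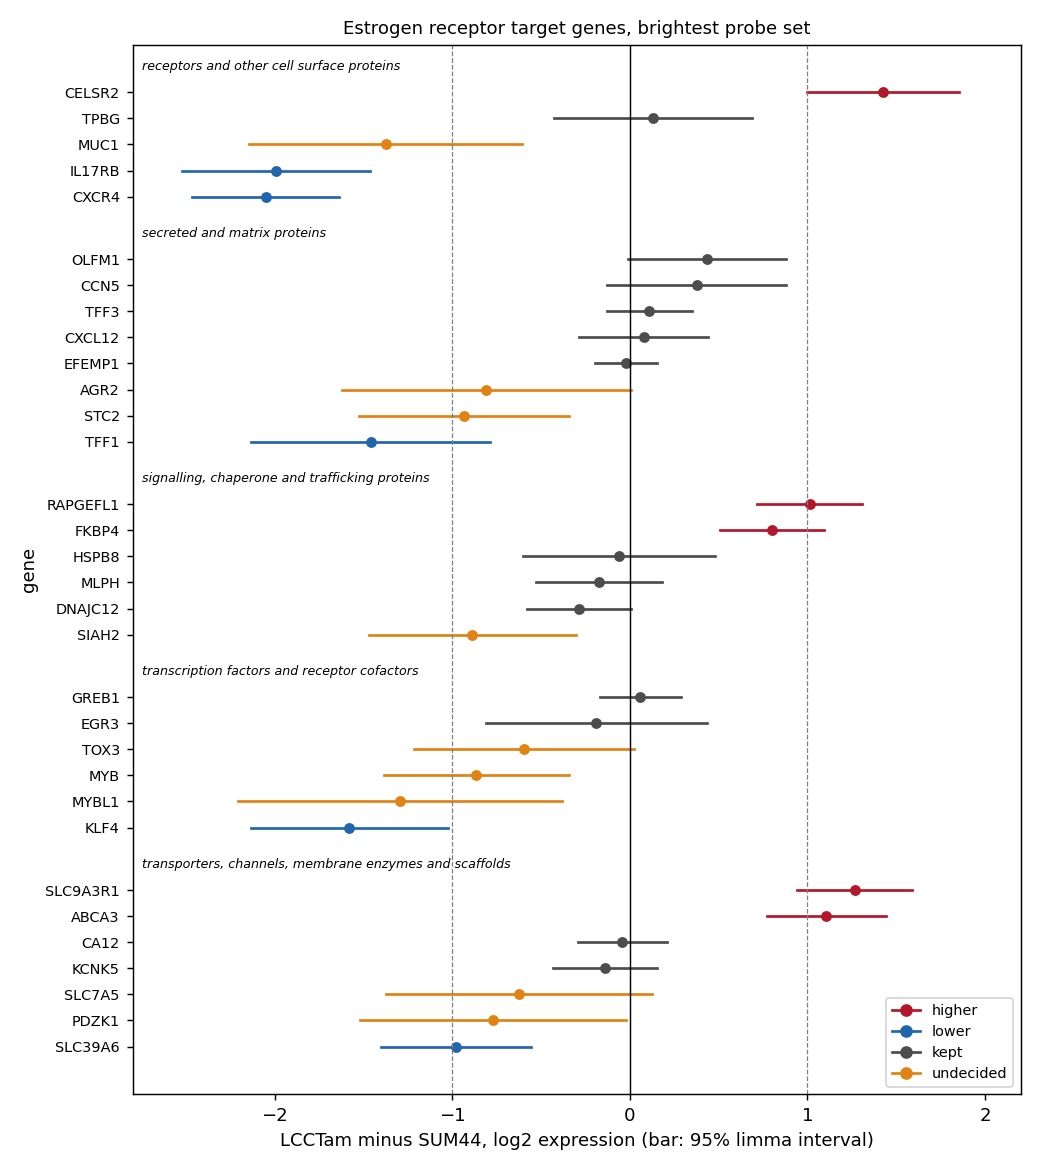
Difference between LCCTam and SUM44 in log2 expression (horizontal axis) for the 32 targets (vertical axis), grouped by role, with points for the estimate and bars for the 95% limma interval. Dashed lines mark 2-fold. The 5 higher genes and the 5 lower genes stand on opposite sides of 0, and the 9 undecided genes all lie left of 0.

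The counts depended on single arrays, as did those of all genes. Without SUM44 replicate 2 there were 3 higher and 2 lower members, where 0.46% and 1.42% of all genes were called. Without LCCTam replicate 1 there were 4 and 2, where 0.652% and 1.82% of all genes were called. Without LCCTam replicate 2 there were 4 and 3, where 0.819% and 2.57% of all genes were called. Without LCCTam replicate 3 there were 5 higher and 7 lower, as MYB and SIAH2 also passed, where 5.18% and 7.36% of all genes were called. That is the array whose RNA controls stood apart. CELSR2, SLC9A3R1, RAPGEFL1, CXCR4 and IL17RB were called in every setting in which they were read. These settings left out each array in turn and changed the normalization, the weights, the filter and the probe sets. The other 5 were not called in at least 1 of the settings that leave out an array, as their entries below say.

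Promoter sequences are shown for CELSR2 and CXCR4, the members with the largest rise and the largest fall, and for RAPGEFL1 and SLC39A6, the called members whose windows held a GGTCA half-site. The last 2 were chosen after the motif search. Each run is the 250 bases upstream of a RefSeq start site (GRCh38.p14), 5′ to 3′ on the strand of the gene, with a GGTCA match on either strand in capitals. The CELSR2 window is chr1:109249289-109249538 on the plus strand, and the CXCR4 window is chr2:136118150-136118399 on the minus strand. The RAPGEFL1 window is chr17:40177220-40177469 on the plus strand, and the SLC39A6 window is chr18:36129341-36129590 on the minus strand.
CELSR2: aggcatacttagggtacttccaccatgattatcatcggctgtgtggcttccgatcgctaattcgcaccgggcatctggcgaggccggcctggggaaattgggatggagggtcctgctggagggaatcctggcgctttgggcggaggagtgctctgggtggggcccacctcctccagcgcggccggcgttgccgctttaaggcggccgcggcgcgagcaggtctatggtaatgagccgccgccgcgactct
CXCR4: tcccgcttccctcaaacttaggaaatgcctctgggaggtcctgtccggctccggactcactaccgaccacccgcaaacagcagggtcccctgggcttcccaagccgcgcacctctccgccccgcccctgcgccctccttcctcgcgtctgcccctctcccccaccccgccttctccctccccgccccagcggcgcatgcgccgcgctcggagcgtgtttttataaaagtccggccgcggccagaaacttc
RAPGEFL1: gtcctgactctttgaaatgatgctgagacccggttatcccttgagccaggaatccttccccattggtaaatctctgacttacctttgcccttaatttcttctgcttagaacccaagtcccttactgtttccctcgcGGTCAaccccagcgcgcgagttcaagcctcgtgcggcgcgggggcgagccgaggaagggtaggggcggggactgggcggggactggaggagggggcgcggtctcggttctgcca
SLC39A6: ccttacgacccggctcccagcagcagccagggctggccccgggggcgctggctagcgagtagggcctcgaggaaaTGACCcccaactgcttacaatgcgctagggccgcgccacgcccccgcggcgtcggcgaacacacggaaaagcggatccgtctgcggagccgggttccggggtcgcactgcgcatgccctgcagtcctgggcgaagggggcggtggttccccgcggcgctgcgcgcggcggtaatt
The RAPGEFL1 match starts 114 bases upstream of the start site, and the SLC39A6 match, on the opposite strand as TGACC, starts 175 bases upstream. The table held windows for 23 of the 32 members. Neither TFF1 nor GREB1 had one. A half-site lay in 7 of the 23, or 30.4%, against 33.1% of 27305 windows, so the members' share was near that of all windows. The 7 were CA12, CXCL12, KCNK5, PDZK1, RAPGEFL1, SLC39A6 and TPBG, which include rising, falling and kept genes. The full palindrome, the half-site GGTCA and its inverse TGACC with any 3 bases between them, was in 0 of 23 member windows, also when 1 fixed letter could differ, where 0.0439% and 0.732% of all windows held it. The AP-1 motif TGANTCA was in 0 of 23 (6.57% of all), and the forkhead motif TGTTTAC was in 2, DNAJC12 and MYB (3.01% of all). A match here describes letters and does not mark a bound site. No match says nothing of elements farther away, where many estrogen receptor sites lie.

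Receptors and other cell surface proteins held the members with the largest falls and the one with the largest rise. Of 5 members 1 rose, 2 fell, 1 was kept and 1 was undecided. Of all genes 1.98% were higher, 5.58% lower, 87.9% kept and 4.51% undecided. CXCR4, the receptor for the chemokine CXCL12, read 8.45, 8.74 and 8.92 in SUM44 replicates 1, 2 and 3 and 6.74, 6.88 and 6.34 in LCCTam. The groups lay well apart. CXCR4 differed by -2.05 (SE 0.18, limma adjusted p = 0.00202), which is 4.14-fold lower. Its LCCTam mean of 6.65 was no brighter than that of the endothelial marker TEK there, 6.75, so the size of the fall depends on the background. The other CXCR4 probe sets differed by -1.99 and -2.54 and passed as well, so all 3 gave like falls. IL17RB, a receptor for interleukin 17 family ligands, read 9.64, 9.73 and 10.45 in SUM44 and 8.16, 7.75 and 7.93 in LCCTam. Its single probe set was 3.98-fold lower (SE 0.22, limma adjusted p = 0.00479) and carries the suffix _x_at, which marks probes that can cross-hybridize.

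CELSR2, a cadherin family receptor of planar cell polarity, moved the other way. It read 7.66, 7.36 and 7.86 in SUM44 and 9.06, 9.33 and 8.76 in LCCTam. The lowest LCCTam array was above the highest SUM44 array. The difference was 1.43 (SE 0.18, limma adjusted p = 0.00759), and the other CELSR2 probe set gave 1.35. MUC1, a transmembrane mucin, had an undecided difference of -1.38 (adjusted p = 0.0547 in limma) in its brightest probe set. A dimmer MUC1 probe set passed at -1.40 (adjusted p = 0.0363), and the dimmest differed by -0.33. TPBG, the trophoblast glycoprotein 5T4, was kept, with a difference of 0.13 and an interval from -0.43 to 0.69.

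Of 8 secreted and matrix proteins 0 rose and 1 fell, or 12.5% against 5.58% of all genes. Kept were 5, or 62.5% against 87.9% of all genes, and 2 were undecided. TFF1, the trefoil factor also known as pS2 and a classical estrogen target in breast cancer cells, read 11.19, 12.07 and 12.20 in SUM44 replicates 1, 2 and 3. It read 10.29, 10.09 and 10.70 in LCCTam, below all SUM44 values. The difference was -1.46 (SE 0.28, limma adjusted p = 0.0296). It was not called in 4 of the settings that leave out an array, which were SUM44 replicates 2 and 3 and LCCTam replicates 1 and 2, with adjusted p between 0.0772 and 0.135 and differences between -1.43 and -1.27.

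TFF3, the related trefoil factor, was kept. It read 11.02, 11.27 and 11.18 in SUM44 and 11.17, 11.37 and 11.26 in LCCTam, so the lines overlapped. The difference was 0.11 with an interval from -0.13 to 0.35. The interval of TFF1, from -2.13 to -0.79, did not reach that of TFF3, though the difference between the genes was not tested. CXCL12, the chemokine ligand of CXCR4, was kept as well. Its brighter probe set read 6.22, 6.35 and 6.31 in SUM44 and 6.35, 6.08 and 6.69 in LCCTam. The difference was 0.08 with an interval from -0.29 to 0.44. The dimmer probe set was dim in both lines and differed by -0.24. The means of the brighter one, 6.30 and 6.37, were near those of the leukocyte marker CD3E, 6.28 and 6.23. These values do not tell whether CXCL12 was expressed in either line. Of this ligand and receptor pair the receptor's transcript fell, and the interval of the ligand's lay within 2-fold either way.

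AGR2, a protein disulfide isomerase of secretory cells, and STC2, the secreted glycoprotein stanniocalcin 2, were undecided at -0.81 and -0.93. The dimmer STC2 probe set passed at -1.51 (adjusted p = 0.0218 in limma). OLFM1, a secreted olfactomedin, differed by 0.43 in its brightest probe set and by 0.01 and -0.31 in the others, and was kept. CCN5, a matricellular protein named WISP2 in older annotation, differed by 0.38, and EFEMP1, the matrix protein fibulin 3, by -0.02. Both were kept, but both were dim. The dim level stands in for the background, so a change at such levels may not have been detectable.

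Of 6 transcription factors and receptor cofactors 0 rose, 1 fell, or 16.7% against 5.58% of all genes, 2 were kept and 3 were undecided. Negative differences numbered 5 of 6, against 46.4% of all genes, and included EGR3 and TOX3, which were dim in both lines. KLF4, a Krüppel-like transcription factor, read 7.95, 7.19 and 7.06 in SUM44 replicates 1, 2 and 3 and 5.90, 5.94 and 5.62 in LCCTam. All LCCTam values were lower, and 1 of the 3 was under 5.75. The LCCTam mean of 5.82 was near that dim level, so the size of the fall depends on the background. The difference was -1.58 (SE 0.23, limma adjusted p = 0.0125), with -0.58 in the other KLF4 probe set, which also passed. KLF4 had an adjusted p of 0.0525 without SUM44 replicate 2 and of 0.0552 without LCCTam replicate 1.

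MYB, a proto-oncogene transcription factor whose transcript elongation is estrogen dependent, read 9.82, 10.06 and 10.23 in SUM44 and 8.82, 9.04 and 9.65 in LCCTam. The groups did not overlap, but LCCTam replicate 3 stood above the other LCCTam arrays. The difference was -0.86 (SE 0.22, limma adjusted p = 0.0664). Without LCCTam replicate 3 MYB passed at -1.10 (adjusted p = 0.00848). Its relative MYBL1 was undecided at -1.30 (interval -2.21 to -0.38), with a mean of 6.43 in SUM44 and a dim mean of 5.13 in LCCTam. MYBL1 was the member that was dim in LCCTam and not in SUM44.

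GREB1, a chromatin-bound cofactor of the receptor that estrogen induces, gave readings that disagreed between probe sets. The brightest read 4.99, 5.06 and 4.89 in SUM44 and 4.89, 5.12 and 5.10 in LCCTam and was kept (difference 0.06, interval -0.17 to 0.29). Another read 4.94, 4.94 and 4.89 in SUM44 and 4.05, 3.75 and 3.94 in LCCTam, a difference of -1.01 that passed (SE 0.10, limma adjusted p = 0.00302). The third differed by 0.12. All 3 GREB1 probe sets were dim in both lines, so these values do not tell whether the gene was expressed in either. EGR3, an early growth response factor, and TOX3, an HMG-box factor, were also dim in both lines, at differences of -0.19 and -0.60.

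Of 7 transporters, channels, membrane enzymes and scaffolds 2 rose, or 28.6%, 1 fell, or 14.3%, 2 were kept and 2 were undecided. Over all genes 1.98% were higher and 5.58% lower. SLC9A3R1, whose current symbol is NHERF1, encodes a scaffold that ties membrane proteins to ezrin. It read 10.90, 11.06 and 11.39 in SUM44 replicates 1, 2 and 3 and 12.42, 12.47 and 12.26 in LCCTam. The values lay well apart, and the LCCTam mean was 2.41-fold higher (SE of the log2 difference 0.14, limma adjusted p = 0.00437). ABCA3, a lipid transporter, read 7.93, 8.01 and 8.35 in SUM44 and 9.26, 9.34 and 9.01 in LCCTam. Its difference was 1.11 (SE 0.14, limma adjusted p = 0.00772), and its adjusted p was 0.0522 without SUM44 replicate 2.

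SLC39A6, the zinc transporter LIV-1, fell. Its brighter probe set read 11.61, 11.44 and 11.67 in SUM44 and 10.35, 10.43 and 11.00 in LCCTam, again with replicate 3 highest of its line. The difference was -0.98 (SE 0.18, limma adjusted p = 0.0239). It was not called without any 1 of SUM44 replicates 1, 2 and 3 and LCCTam replicates 1 and 2, with adjusted p from 0.0619 to 0.0896. The dimmer SLC39A6 probe set gave -1.20 (adjusted p = 0.00528). PDZK1, a scaffold with PDZ domains like SLC9A3R1, had a negative difference in contrast. It read 7.91, 7.97 and 9.14 in SUM44 and 7.48, 7.72 and 7.52 in LCCTam. The SUM44 value at passage 76 was far above the others, and the difference of -0.77 did not pass (interval -1.52 to -0.02, limma adjusted p = 0.217).

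CA12, a membrane carbonic anhydrase, was the most fully measured of the kept targets. All 6 of its probe sets were kept, with differences from -0.31 to 0.09, and the brightest had an interval from -0.29 to 0.21. SLC7A5, the amino acid transporter LAT1, was undecided at -0.63, with values of 10.48 to 11.56 in SUM44 and 10.05 to 10.90 in LCCTam that overlapped. KCNK5, a potassium channel, was kept at -0.14 and was dim in both lines.

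Signalling, chaperone and trafficking proteins had 2 higher, or 33.3% against 1.98% of all genes, 0 lower, 3 kept and 1 undecided among 6 read. RAPGEFL1, related to guanine nucleotide exchange factors of Rap proteins, read 5.64, 5.86 and 5.70 in SUM44 replicates 1, 2 and 3 and 6.68, 6.98 and 6.57 in LCCTam. The SUM44 mean of 5.73 was near the dim level, and all LCCTam values were above it. The RAPGEFL1 means, 5.73 and 6.75, were no brighter than those of the endothelial marker TEK, 6.70 and 6.75. These values do not tell whether RAPGEFL1 was expressed in either line, and the size of its rise depends on the background. The difference was 1.01 (SE 0.13, limma adjusted p = 0.00689). FKBP4, the HSP90 co-chaperone FKBP52 of steroid receptor complexes, read 11.82, 11.94 and 12.27 in SUM44 and 12.82, 12.81 and 12.80 in LCCTam. Its LCCTam arrays nearly coincided. The difference was 0.80 (SE 0.12, limma adjusted p = 0.0143), and the other FKBP4 probe set was 1.99-fold higher. Its adjusted p was 0.0835 without SUM44 replicate 2, 0.0674 without LCCTam replicate 1 and 0.0541 without LCCTam replicate 2.

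SIAH2, an E3 ubiquitin ligase, was undecided at -0.89. It read 8.59, 8.46 and 8.43 in SUM44 and 7.98, 7.84 and 6.99 in LCCTam, so LCCTam replicate 3 was lowest. Without that array SIAH2 passed at -0.58 (limma adjusted p = 0.0149), a smaller difference with a smaller spread. DNAJC12, a J-domain protein, HSPB8, a small heat shock protein, and MLPH, which links melanosomes to their motor, were kept at -0.29, -0.06 and -0.17. All 3 were read well above the dim level.

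**Figure D2:**
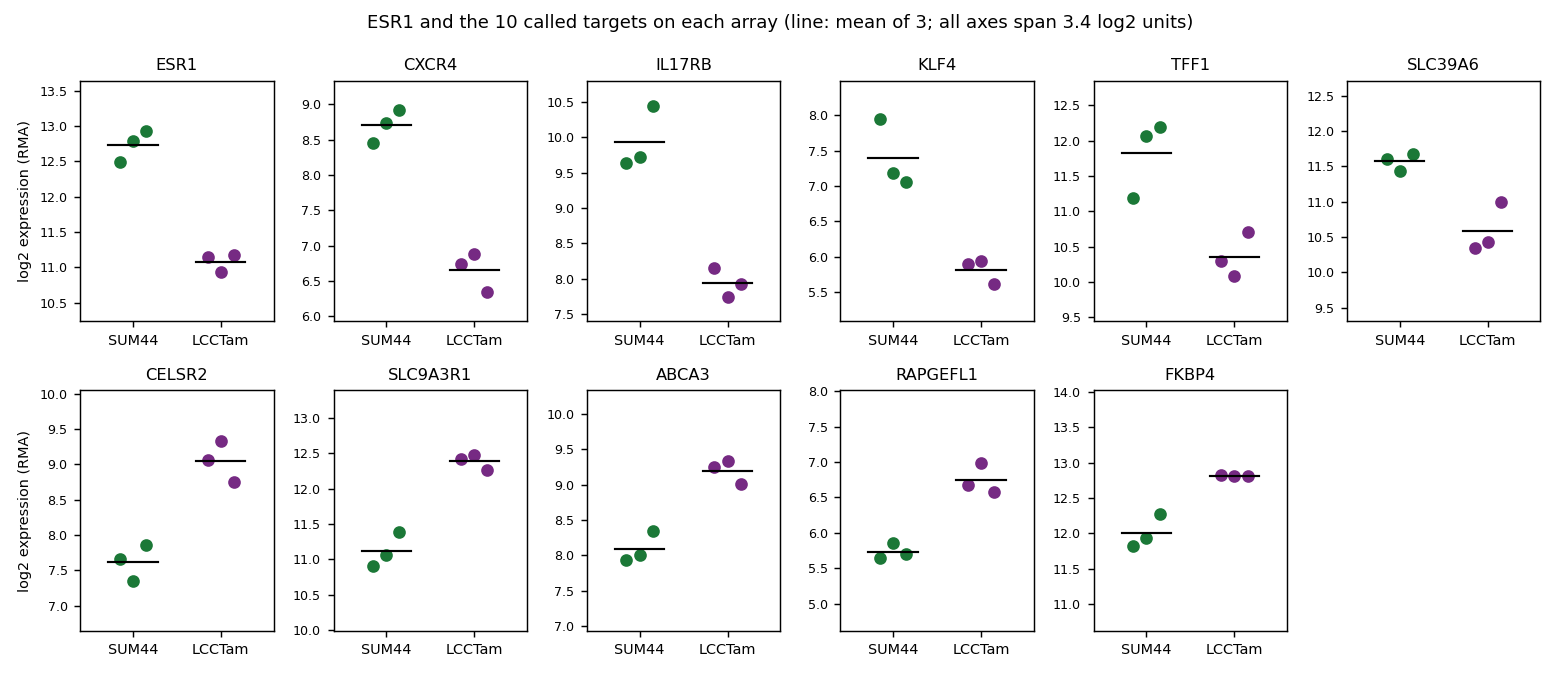
Log2 expression (vertical axes) of ESR1 and the 10 called targets on each of the 6 arrays, with 3 points per line in the order of replicates 1 to 3 and a bar at the mean. In each panel the SUM44 and LCCTam points do not overlap, with 5 targets lower and 5 higher in LCCTam. The targets are shown because they were called, which makes such separation likely.

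Of the 32 members 18 had 1 probe set and 14 had several, and 0 had probe sets passing in opposite directions. Of the 55 probe sets 7 were higher, at a background of 1.56%, and 12 were lower, at a background of 5.16%. The lower ones came from 8 genes, since GREB1, MUC1 and STC2 each had a dimmer probe set that passed beside a brightest one that did not. Without SUM44 replicate 2 these counts were 3 and 6, and without LCCTam replicate 1 they were 4 and 6. The shares of all genes in those settings are given above.

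**Figure D3:**
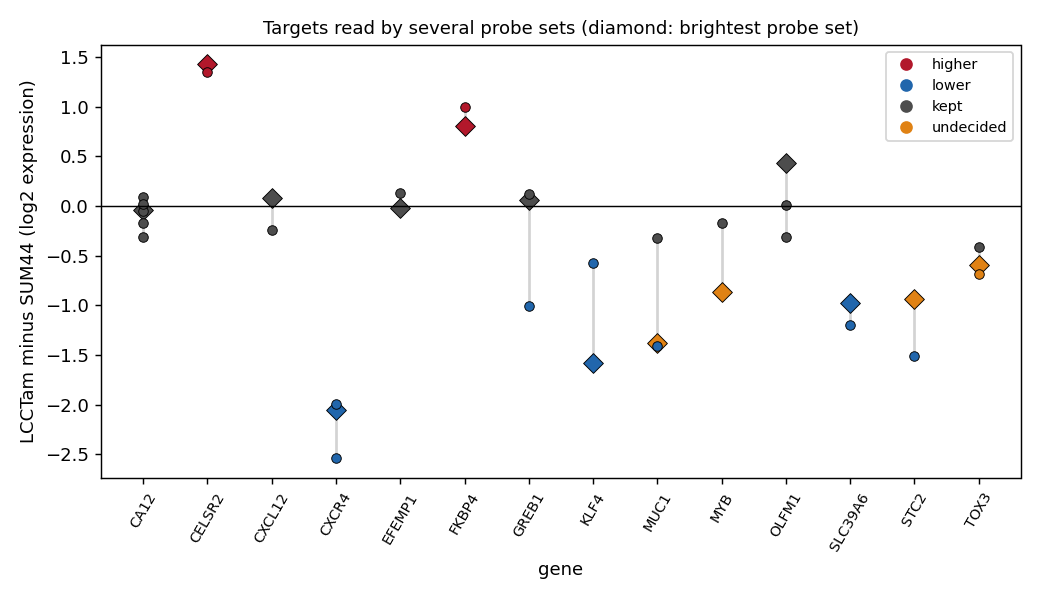
Difference in log2 expression between LCCTam and SUM44 (vertical axis) for each probe set of the 14 targets read by several (horizontal axis), with diamonds for the brightest and colours for the call. CA12 probe sets lie between -0.31 and 0.09, while GREB1 probe sets run from -1.01 to 0.12.

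The kept members split by brightness. Of the 13, 8 were above the dim level in both lines, which were CA12, CXCL12, DNAJC12, HSPB8, MLPH, OLFM1, TFF3 and TPBG. The other 5, CCN5, EFEMP1, EGR3, GREB1 and KCNK5, were dim in both. Of the 8, CXCL12 and OLFM1 had SUM44 means of 6.30 and 6.66, no brighter than the endothelial marker TEK at 6.70. Their values do not tell whether they were expressed in SUM44. With the narrower limit of 1.5-fold in place of 2-fold, 7 members were kept.

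Spread between the SUM44 passages was wide for several targets. The SUM44 values ranged over at least 1 in 6 members, or 18.8%, against 2.51% of all genes. In LCCTam 0 members did, against 1.35% of all genes. The SD was larger in SUM44 than in LCCTam in 16 of the 32 members, and in 36.6% of all genes. The 6 were AGR2, MUC1, MYBL1, PDZK1, SLC7A5 and TFF1, of which all but TFF1 were undecided. MYBL1 read 5.53, 6.55 and 7.20 at passages 74, 75 and 76, and AGR2 read 11.26, 12.56 and 12.52. MUC1 ran the other way, at 9.03, 8.60 and 7.64.

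In 13 members, or 40.6%, the SUM44 value was lowest at passage 74 and highest at passage 76, against 19.4% of all genes. The brightest ESR1 probe set had the same order, but the other ESR1 probe sets called lower were all highest at passage 75. The reverse order held in 6 members, or 18.8%, against 23.1% of all genes. Each passage is 1 array, so the spread at a passage is unknown and the order was not tested. Among the genes with a wide SUM44 range, leaving out 1 SUM44 array gave a call for AGR2, MYBL1 and MUC1, while PDZK1 and SLC7A5 were not called with any array left out. Without SUM44 replicate 1, at passage 74, AGR2 passed at -1.24 (limma adjusted p = 0.00998) and MYBL1 at -1.74 (adjusted p = 0.0147). Without SUM44 replicate 3, at passage 76, MUC1 passed at -1.77 (adjusted p = 0.00592).

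**Figure D4:**
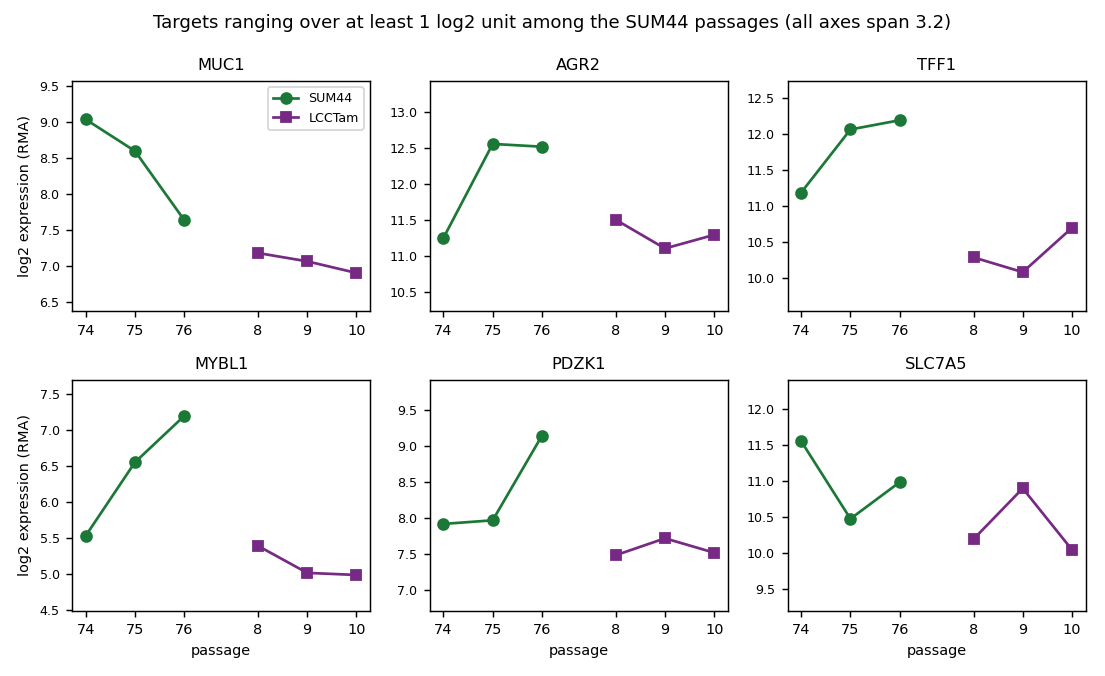
Log2 expression (vertical axes) at each passage (horizontal axes) for the 6 targets whose SUM44 values ranged over at least 1, with SUM44 as circles and LCCTam as squares, 1 array per point. The genes were chosen for a wide SUM44 range, so the wider spread of SUM44 in the panels is set by that choice. MYBL1 ran from 5.53 to 7.20 over the SUM44 passages, and MUC1 from 9.03 to 7.64.

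Of 12 receptors, partner factors and coregulators read, 1 was higher and 3 were lower, with a median difference of -0.11. Of all genes 1.98% were higher and 5.58% lower, with a median difference of 0.02. ESRRG, an orphan receptor related to the estrogen receptors, was 4.28-fold higher, and ESR1, the corepressor gene NRIP1 and the coactivator gene NCOA2 were lower, the last 2 by 1.77-fold and 1.69-fold. Without SUM44 replicate 2, or without LCCTam replicate 1, 1 of the list was lower, where 1.42% and 1.82% of all genes were. FOXA1, the pioneer factor that opens receptor sites, was kept at 0.07 and GATA3, its partner, at -0.23. PGR, the progesterone receptor gene, read 3.85 in both lines, well under the dim level.

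Among 99 other estrogen-responsive genes read of 106 listed, 14 were higher, or 14.1%, and 23 were lower, or 23.2%, with 51 kept and a median of -0.15. These shares can be set beside the 1.98% and 5.58% of all genes given above. This list too was chosen with earlier results of these data known. ADCY1, an adenylyl cyclase, was higher, with a dim mean of 5.52 in SUM44 and a mean of 10.10 in LCCTam. GJA1, a gap junction connexin, was lower, from a mean of 9.48 to a dim mean of 5.44, and NPY1R, a neuropeptide Y receptor, was lower, from 8.01 to a dim mean of 4.98. No fold is given for these 3 genes, since 1 of the lines was dim in each. SERPINA1, alpha-1 antitrypsin, was above the dim level in both lines and 11.7-fold higher. In the fit restricted to probe sets without _x_at or _s_at, SERPINA1 differed by 0.12 and was not called. Without SUM44 replicate 2 the list had 7 higher and 11 lower, and without LCCTam replicate 1 it had 8 and 12. Without LCCTam replicate 2 it had 7 higher. The shares of all genes in those settings are given with the members' counts above.

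**Figure D5:**
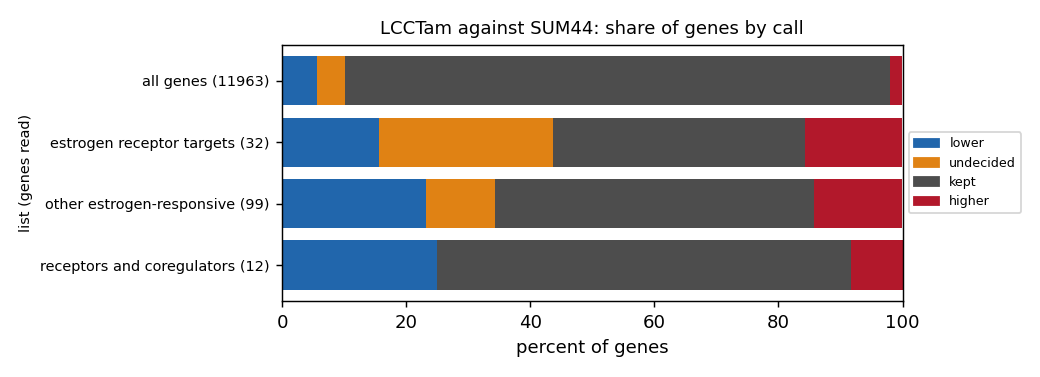
Percent of genes (horizontal axis) called lower, undecided, kept or higher in all genes, in the targets and in the lists of other estrogen-responsive genes and of receptors and coregulators, with the number of genes read beside each bar. The targets had 15.6% lower and 15.6% higher, against 5.58% and 1.98% of all genes. The targets and lists were chosen with earlier results of these data known.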

How the data were processed

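Total RNA of 3 SUM44 and 3 LCCTam samples was labelled with biotin and hybridized to arrays with 22283 probe sets, per the labels' protocols. The authors deposited log2 values from RMA, a background correction, normalization and probe summary, per the submitters' processing notes. For its version and chip definition the sources used here give nothing.

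The 68 control probe sets were left out. Of 19071 probe sets with 1 symbol, 19059 were updated through Entrez identifiers with RefSeq (GRCh38.p14), which gave 11963 genes. The fit used limma 3.58.1 in R 4.3.3 (lmFit, eBayes, no filter, Benjamini-Hochberg over 22215 probe sets) and was checked on simulated data. Whether the passages of a line were separate cultures is not in the labels, so the spread behind each p-value may be technical. Scan batches were not analysed here. The number of arrays limits the precision.

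The members, lists and tests were chosen with earlier results of these data known. Array values were named for ESR1, called members, the largest difference in each role group and TFF1, TFF3, GREB1, PDZK1, CXCL12, CXCR4 and MYB. In each other list up to 4 called genes were named. Values per array of undecided members, FOXA1, GATA3, PGR and the promoters with a half-site were added after their values were seen. Promoters of SLC9A3R1, ABCA3, IL17RB and KLF4 held no motif and are not printed. The other-tissue list had 1 called gene of 27, CKM at 0.42. The alternatives changed the normalization, centring, weights, variance model, probe set rule, filter, thresholds and arrays.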

Additional observations from a re-analysis of the deposited data

How the results depend on the processing

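No paired analysis was possible because the passages of the lines share no number. In every setting the 10 called members kept their direction. In the fit reported above, higher and lower members numbered 5 and 5. Array weights raised the calls over all genes from 1.98% to 17.0% higher and from 5.58% to 16.8% lower, so the 5 higher members (15.6%) were then near that share. Lower members numbered 13 with array weights (8 of them 2-fold), 8 with the mean of a gene's probe sets (7 of them 2-fold), 9 at an adjusted p below 0.1, and 3 without _x_at and _s_at probe sets (2 of them 2-fold, and 3 by the design text's selection). The last setting read fewer genes. Over all genes the lower share was 6.14% with the mean of the probe sets and 9.13% at an adjusted p below 0.1. Without those suffixes 1.71% of all genes were higher and 5.19% lower. Kept members numbered 7 at the 1.5-fold limit. Of the member probe sets 24 were lower with array weights and 4 without the _x_at and _s_at ones. Shares over all probe sets were not taken in those settings, in which 16.8% and 5.19% of all genes were lower. Members dim in both lines numbered 6, and 3 without those suffixes. Other estrogen-responsive genes had 27 of 99 higher with array weights, against that 17.0%, and 5 higher and 14 lower without those suffixes. Receptors and coregulators had 5 lower with array weights and 0 higher without those suffixes. The array weights were 5.70, 0.69 and 0.20 for LCCTam replicates 1, 2 and 3, so that line rested mostly on replicate 1. For SUM44 replicates 1, 2 and 3 they were 0.68, 2.25 and 0.84. The cause of the shifts under array weights was not tested. Of all genes called, 73.8% were lower, 53.3% with quantile normalization, under which the members stayed at 5 and 5, 58.7% without LCCTam replicate 3 and 49.7% with array weights.

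Leaving out 1 array gave 3 to 5 higher members (3 to 4 of them 2-fold), 2 to 7 lower members (2 to 6 of them 2-fold), 10 to 13 kept, and 3 to 4 higher and 5 to 8 lower by the design text's selection. It gave 3 to 7 higher and 6 to 13 lower member probe sets. Other estrogen-responsive genes had 7 to 16 higher and 11 to 23 lower, and receptors and coregulators had 1 to 3 lower. Over all genes the shares in these settings ran from 0.46% to 5.18% higher and from 1.42% to 7.36% lower.

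Sign changes were limited to members that were not called. With array weights TFF3 was at -0.011, GREB1 at -0.085, MLPH at 0.11 and HSPB8 at 0.26. With the mean of the probe sets GREB1 was at -0.28, CXCL12 at -0.081 and EFEMP1 at 0.054. When 1 array was left out, CXCL12 ran from -0.080 (without LCCTam replicate 3) to 0.22, CA12 from -0.12 to 0.024 (without LCCTam replicate 3), TPBG from -0.080 (without SUM44 replicate 3) to 0.40, EGR3 from -0.39 to 0.091 (without SUM44 replicate 3) and HSPB8 from -0.20 to 0.18 (without LCCTam replicate 3). With no detection calls, differences of dim members are limited by signal over background. The design text's floor was not applied to centred values.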
